A study of Mus musculus with 12 samples.

Results

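The transcripts of 35 genes that act in mitosis and on the spindle were examined in RNA-seq data of bone marrow-derived dendritic cells (BMDCs), out of 41709 genes in the count tables. The members were taken by gene symbol as cyclins of the G2 and M phases, CDK1, mitotic kinases, spindle checkpoint, kinetochore, kinesin and cytokinesis genes, and all 35 symbols were found. The rule used no measured value, but earlier results of these data were known when the members were chosen. BMDCs were grown from mouse bone marrow in GM-CSF for 10 days, and MHCII+ cells were isolated immunomagnetically before RNA extraction. The groups were unstimulated BMDCs of CD18fl/fl mice (labelled Cre-), unstimulated BMDCs of CD18CD11c cKO mice (labelled CD18-delta-CD11c, Cre+), and BMDCs of either genotype given 100 ng/mL LPS for 24 h, with 3 libraries in each of the 4 groups. All mice, controls included, carried the floxed CD18 gene, and the deletion depends on Cre driven by the promoter of CD11c, a gene that BMDCs switch on as they differentiate. The methods describe stimulation overnight, whereas the labels give 24 h. As the labels do not say whether libraries of a group came from separate mice or cultures, p-values measure the spread between these libraries.

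Cells enter mitosis when B-type cyclins activate the kinase CDK1. Polo-like and Aurora kinases then build the spindle, the kinetochore ties chromosomes to its microtubules, and the spindle checkpoint holds back the anaphase-promoting complex (APC/C) until all chromosomes are attached. The APC/C destroys cyclin B, after which motor proteins and the cleavage furrow separate the daughter cells. Most of these genes are transcribed late in the cell cycle, through promoters known for CCAAT boxes and for a short element termed CHR (cell cycle genes homology region). Bone marrow progenitors divide in GM-CSF, and dendritic cells that mature upon contact with the Toll-like receptor 4 ligand LPS are known as largely non-dividing.

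To show which members carry these elements, their promoter sequences were read from RefSeq (GRCm38.p6), from 250 bases before to 50 bases after the start of transcription. These coordinates belong to that build and not to GRCm39, on which the reads were counted. Windows were found for 31 of 35 members (33 windows), and Ccna2, Aurkb, Kif20a and Tpx2 had no entry. The pentamer CCAAT (or ATTGG on the other strand) was present in 26 of 33 windows (78.8%), compared with 37.4% of all 32851 promoter windows. The CHR-like hexamer TTTGAA (or TTCAAA) was present in 26 of 33 windows (78.8%, against 17.9% of all windows), and its variant TTCGAA, which reads alike on both strands, in 3 (9.09%, against 1.56%). Either hexamer together with CCAAT occurred in 24 windows (72.7%), against 7.52% of all windows, and 18 windows (54.5%) held 2 or more CCAAT, against 11.7%. A match describes letters in the window and is not a shown binding site. The windows below are those of Ccnb2, Cdc20 and Top2a, which hold both kinds of motif, and of Ccnb1, Mad2l1 and Birc5, 3 members whose genotypes did not overlap after LPS, which lack both hexamers. Matches are in capitals.
Ccnb2 (chr9:70421505-70421804, minus strand): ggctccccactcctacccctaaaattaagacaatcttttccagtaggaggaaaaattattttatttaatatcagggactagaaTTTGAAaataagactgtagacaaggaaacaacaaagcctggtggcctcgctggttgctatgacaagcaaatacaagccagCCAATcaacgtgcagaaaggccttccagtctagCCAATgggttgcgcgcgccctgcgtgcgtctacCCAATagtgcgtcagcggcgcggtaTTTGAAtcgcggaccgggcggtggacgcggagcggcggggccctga
Cdc20 (chr4:118437294-118437593, minus strand): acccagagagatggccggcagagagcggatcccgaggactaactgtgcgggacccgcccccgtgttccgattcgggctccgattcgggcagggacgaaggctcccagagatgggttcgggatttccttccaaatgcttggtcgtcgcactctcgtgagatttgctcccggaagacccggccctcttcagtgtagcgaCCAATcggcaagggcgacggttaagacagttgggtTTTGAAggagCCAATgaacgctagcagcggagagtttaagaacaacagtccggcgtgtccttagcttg
Top2a (chr11:99024140-99024439, minus strand): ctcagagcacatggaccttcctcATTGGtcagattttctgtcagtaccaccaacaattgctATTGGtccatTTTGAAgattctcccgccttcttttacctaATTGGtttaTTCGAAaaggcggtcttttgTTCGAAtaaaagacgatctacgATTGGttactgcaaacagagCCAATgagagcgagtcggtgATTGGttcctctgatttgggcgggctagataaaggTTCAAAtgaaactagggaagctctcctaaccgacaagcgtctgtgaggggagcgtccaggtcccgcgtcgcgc
Ccnb1 (chr13:100786437-100786736, minus strand): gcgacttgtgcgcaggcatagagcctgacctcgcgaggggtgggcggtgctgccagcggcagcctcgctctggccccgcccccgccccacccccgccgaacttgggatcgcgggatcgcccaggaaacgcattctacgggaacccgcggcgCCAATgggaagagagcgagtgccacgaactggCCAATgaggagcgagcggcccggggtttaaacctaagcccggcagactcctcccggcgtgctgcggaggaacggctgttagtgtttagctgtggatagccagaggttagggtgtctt
Mad2l1 (chr6:66534971-66535270, plus strand): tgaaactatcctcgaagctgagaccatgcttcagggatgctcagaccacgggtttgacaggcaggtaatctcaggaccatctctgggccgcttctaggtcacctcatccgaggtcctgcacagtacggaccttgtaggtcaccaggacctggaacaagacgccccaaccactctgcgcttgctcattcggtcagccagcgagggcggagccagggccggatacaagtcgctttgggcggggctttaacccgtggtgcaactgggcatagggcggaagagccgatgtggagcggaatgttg
Birc5 (chr11:117848987-117849286, plus strand): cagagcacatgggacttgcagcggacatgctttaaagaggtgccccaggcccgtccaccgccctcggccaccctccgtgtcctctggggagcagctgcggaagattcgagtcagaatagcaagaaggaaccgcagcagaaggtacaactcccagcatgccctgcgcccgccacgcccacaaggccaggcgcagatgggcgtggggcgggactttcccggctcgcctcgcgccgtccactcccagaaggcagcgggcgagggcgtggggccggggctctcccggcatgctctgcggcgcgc

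Ccnb2 held CCAAT at -87, -54 and -21 relative to the start of transcription and TTTGAA at -167 and 5, where positions give the first base of the match. Top2a held 6 CCAAT and 4 hexamers. Ccnb1 carried CCAAT at -99 and -67 without either hexamer, while Mad2l1 and Birc5 carried none of the motifs. Besides these 3, Cenpe, Nuf2 and Nusap1 lacked both hexamers in their windows, so that 6 of 31 members did so.

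Library depth was even, at 29689149 to 34037178 total gene reads. The floor of 3 reads amounted to 0.0752 to 0.135 CPM (read counts scaled by library total and edgeR's TMM factors), which covers counting error only, since PCR duplicates were not told apart by molecular identifiers. Itgb2, the gene of CD18, reached 382, 420.0 and 379 CPM in the unstimulated CD18fl/fl libraries of replicates 1, 2 and 3, and 120.4, 163 and 189 CPM in those of CD18CD11c cKO. The log2 fold change of Itgb2, with its standard error from edgeR's quasi-likelihood test after ± as throughout, was -1.26 ± 0.23 (adjusted p = 0.0887), and -1.29 ± 0.17 (adjusted p = 0.00392) with the replicate number as a block. After LPS, the values were 167, 171 and 266 CPM and 114, 89.7 and 119 CPM. Il6, Irf7, Cd40, Il1b and Il12b, known targets of LPS, had log2 fold changes of 3.33 or more with LPS in both genotypes. Libraries numbered 3 stood apart in marker levels, which are given with the genotype comparison. Across genes, same-numbered libraries deviated together from their group means (correlation 0.28 or higher in each pair). Libraries numbered 1 and 2 also did so with each other (0.213 to 0.482), and those numbered 3 deviated opposite to both (-0.332 to -0.738). Because the deviations of the 3 libraries of a group sum to 0 for each gene, this opposite sign follows in part from the calculation. Each result is therefore also given with a replicate block or without replicate 3 where that changed it. Markers of dendritic cells (10 genes) summed to 16263 to 25309 CPM and 21587 to 37089.5 CPM in unstimulated CD18fl/fl and CD18CD11c cKO BMDCs. In bulk RNA, fewer dividing cells and less mitotic RNA per cell cannot be told apart.

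**Figure D1:**
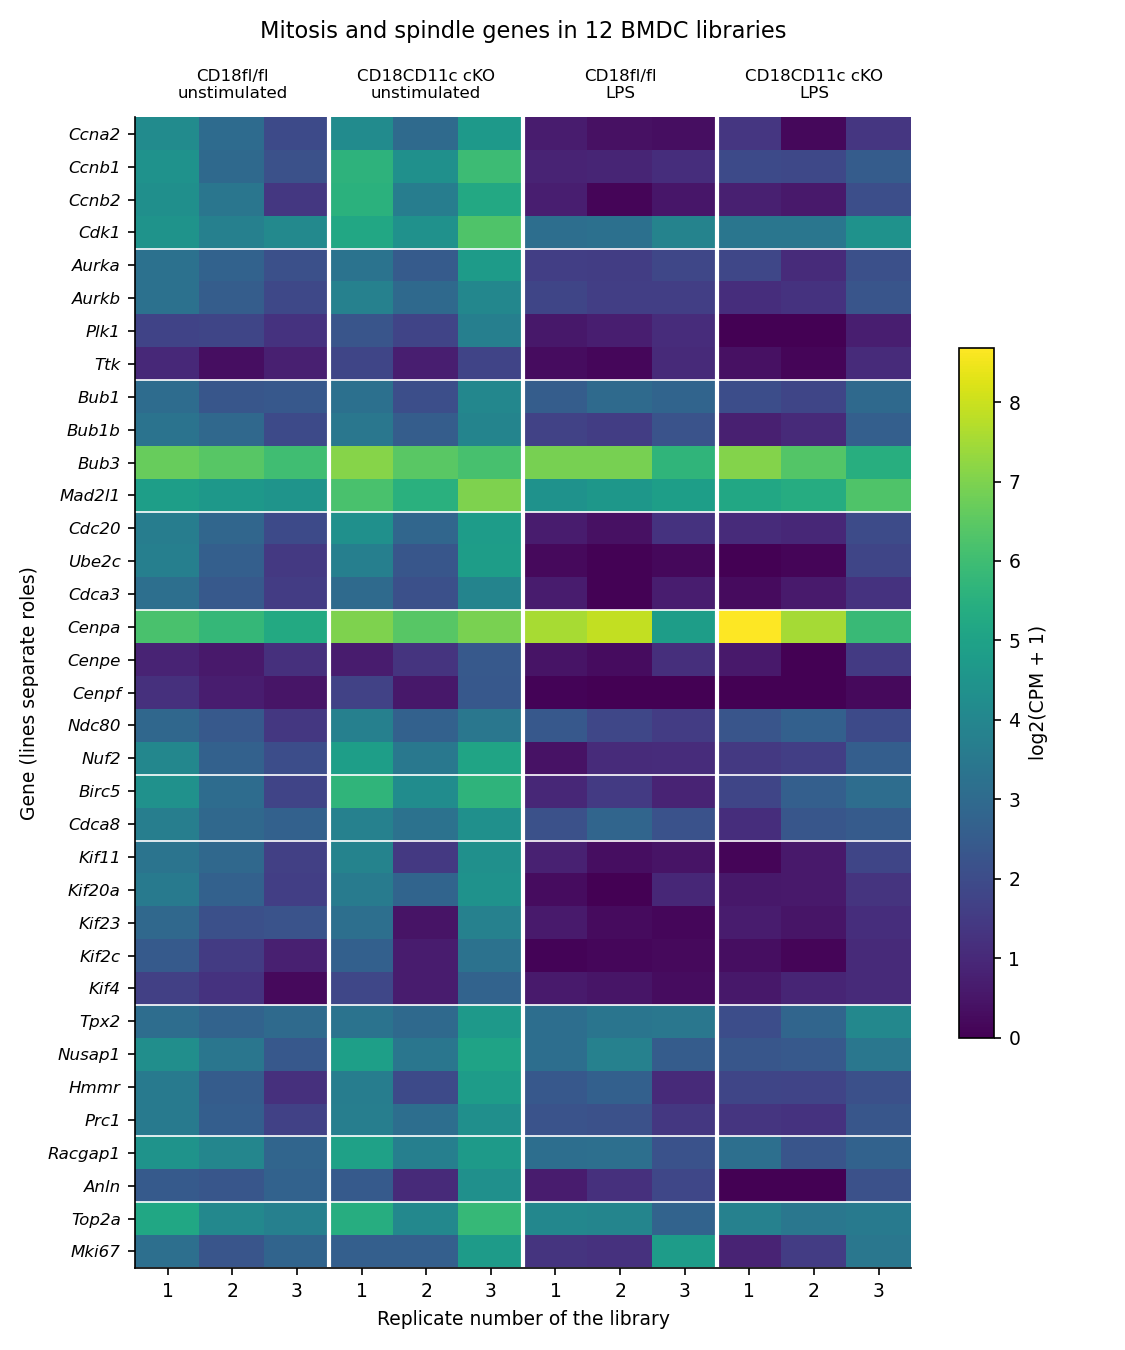
Heat map of log2(CPM + 1) for the 35 genes (rows, in order of role) in the 12 libraries (columns, by group and replicate number). Bub3 and Cenpa are bright in all libraries, most other genes darken in the 6 LPS columns of the right side, and the third unstimulated CD18CD11c cKO library is brighter than the third CD18fl/fl library for all 35 genes on this scale.

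Transcript levels were compared between genes in TPM, the authors' values per transcript length. In unstimulated CD18fl/fl BMDCs, Cenpa, the histone H3 variant of centromeres, was highest at 67.5 ± 20.8 TPM (SD, n = 3), followed by Bub3 at 40.0 ± 8.27 TPM, which brings the checkpoint kinase BUB1 to kinetochores. Ccnb2 (14.6 ± 12.3 TPM), Racgap1 (9.88 ± 5.12 TPM) and Ccnb1 (9.0 ± 7.80 TPM) came next, and these neighbours overlapped widely in their spread. Ttk, Cenpe and Cenpf were lowest, with Cenpf at 0.154 ± 0.0918 TPM. Cenpa and Bub3 held ranks 1 and 2 in all 4 groups. After LPS, Ccnb2 moved from rank 3 to rank 24 of 35 in CD18fl/fl and to rank 16 in CD18CD11c cKO, at mean levels of 0.490 and 1.38 TPM. Mad2l1 moved from rank 10 to rank 3 in CD18fl/fl and from rank 6 to rank 3 in CD18CD11c cKO.

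The first comparison asked whether loss of CD18 altered these transcripts in unstimulated BMDCs. In the unblocked fit with TMM scaling, all 35 members had higher fitted levels in CD18CD11c cKO than in CD18fl/fl BMDCs. Bub3 was lower (-0.11) when libraries were scaled by their totals alone, Kif23 was at -0.01 with the replicate block, and 9 members were below 0 without replicate 3. The members' median log2 fold change was 1.16, while the median over all 12876 genes tested was -0.05. Scaling by totals moved the median of all genes by -0.39 on the log2 scale, and relative to that median the members stood at 1.25 in place of 1.20. Without a block, edgeR called 0 members (0.0% of all genes were called in either direction), with 6 members at an unadjusted p under 0.05 (2159 genes in all, 16.8%) and 5 called by DESeq2 (866 genes, 6.73%). With the replicate block, 6 members rose, namely Ccnb1, Cdk1, Mad2l1, Cenpa, Nuf2 and Birc5, where 12.1% of all genes were called higher and 8.16% lower. No member was called lower. The share of members called, 6 of 35, is to be read against that 12.1%.

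Of the cyclins, Ccnb1 (cyclin B1, chromosome 13, 100915158 to 100923078, minus strand) amounted to 20.3, 6.84 and 3.42 CPM in the CD18fl/fl libraries of replicates 1, 2 and 3, and to 48.0, 19.3 and 61.1 CPM in those of CD18CD11c cKO. Each CD18CD11c cKO library was above its same-numbered control, but the second lay below the first control, so the groups overlapped. The log2 fold change was 2.11 ± 0.73 (adjusted p = 0.23), and 2.27 ± 0.54 (adjusted p = 0.0256) with the block. Cdk1, the kinase partner of cyclin B, reached 21.2, 12.8 and 16.1 CPM and 36.2, 20.0 and 78.4 CPM, with a blocked log2 fold change of 1.29 ± 0.32 (adjusted p = 0.0304). Ccnb2 (cyclin B2) gave 18.9, 9.75 and 1.63 CPM and 46.2, 11.7 and 36.6 CPM without passing the test (1.89 ± 0.71, adjusted p = 0.0961 with the block). Ccna2, the cyclin of S and G2 phase, was nearly equal between genotypes in replicates 1 and 2 (17.3 and 7.12 CPM against 17.4 and 6.97 CPM) and differed in replicate 3 (2.86 against 24.1 CPM).

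Mad2l1, which encodes the checkpoint protein MAD2 (chromosome 6, 66512374 to 66524204, plus strand), was at 28.2, 23.7 and 21.8 CPM in CD18fl/fl and at 72.8, 44.9 and 126 CPM in CD18CD11c cKO BMDCs. All CD18CD11c cKO libraries lay above all controls. Its log2 fold change came to 1.78 ± 0.39 (adjusted p = 0.117) and, when blocked by replicate, to 1.66 ± 0.30 (adjusted p = 0.0104). Without replicate 3, it was 1.24 ± 0.25 (adjusted p = 0.0317). The other checkpoint genes were Bub1, Bub1b and Bub3, of which none was called. In the unblocked fit, Bub3 differed least of all 35 members, at 99.5, 85.0 and 64.3 CPM against 136, 87.0 and 70.3 CPM (log2 fold change 0.29 ± 0.31, adjusted p = 0.683), and -0.11 with libraries scaled by their totals.

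Among centromere and kinetochore genes, Cenpa rose from 72.6, 54.3 and 37.6 CPM to 129, 85.0 and 122 CPM, again without overlap (1.11 ± 0.22, adjusted p = 0.0152 with the block). Nuf2, a subunit of the microtubule-binding NDC80 complex, gave 15.3, 5.41 and 3.15 CPM and 28.1, 10.0 and 32.3 CPM (1.71 ± 0.48, adjusted p = 0.0428 with the block). Its partner Ndc80 pointed the same way without passing the test (1.32 ± 0.44, adjusted p = 0.0675). Cenpe and Cenpf, a kinetochore motor and a corona protein, were scarce, at 0.401 to 4.34 CPM in unstimulated libraries. Birc5 (survivin), a subunit of the chromosomal passenger complex, reached 19.8, 7.47 and 2.43 CPM in CD18fl/fl and 49.8, 17.5 and 48.8 CPM in CD18CD11c cKO (2.23 ± 0.58, adjusted p = 0.0335 with the block), while Cdca8 (borealin), of the same complex, had a blocked log2 fold change of 0.81 ± 0.35 (adjusted p = 0.136). Mad2l1 and Cenpa were the 2 members of 35 whose groups did not overlap with higher values in CD18CD11c cKO, where 11.7% of all genes did so.

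The remaining roles held no call in this comparison. Aurka, the kinase of spindle poles, gave 8.35, 5.59 and 3.34 CPM in CD18fl/fl and 8.93, 4.63 and 26.0 CPM in CD18CD11c cKO. Aurkb, the kinase of the chromosomal passenger complex, gave 8.54, 4.89 and 2.73 CPM and 13.2, 6.83 and 15.2 CPM, and Plk1 2.33, 2.56 and 1.39 CPM and 3.88, 2.47 and 12.6 CPM. With Ttk, the kinase that starts the checkpoint, these kinases had log2 fold changes of 1.17 to 1.64. Cdc20 was at 12, 6.22 and 2.83 CPM and 19.6, 6.30 and 27.1 CPM, and the APC/C activator Cdc20, its E2 enzyme Ube2c and Cdca3 had log2 fold changes of 0.82 to 1.38, while those of the kinesins Kif11, Kif20a, Kif23, Kif2c and Kif4 were 0.69 to 1.32. With the block, the value of Kif23 was -0.01 and that of Anln, which organizes the contractile ring, 0.09. Nusap1, a microtubule bundler, was at 18.7, 9.53 and 4.30 CPM and 29.1, 9.60 and 31.6 CPM. For the spindle proteins Tpx2, Nusap1, Hmmr and Prc1 the range was 1.03 to 1.37, and for the cytokinesis genes Racgap1 and Anln 0.75 and 0.90. Racgap1 was at 21.1, 14.8 and 6.12 CPM in CD18fl/fl and 30.2, 12.6 and 25.8 CPM in CD18CD11c cKO, with intermixed libraries. Top2a, the topoisomerase that untangles chromosomes, gave 35.1, 15.6 and 12.7 CPM and 41.1, 15.5 and 56.0 CPM, and the proliferation marker Mki67 8.04, 3.84 and 5.96 CPM and 5.12, 5.13 and 26.3 CPM. In both genes replicate 3 of CD18CD11c cKO was highest, and the other libraries of the genotypes were intermixed.

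How much of the genotype difference lay in replicate 3 was examined pair by pair, as the difference of log2(CPM + 1) between same-numbered libraries. The members' median difference was 0.24 in pair 1, 0.02 in pair 2 and 2.39 in pair 3, and 32, 19 and 35 of 35 members were higher in CD18CD11c cKO. The third CD18fl/fl library was the lowest of the 6 unstimulated libraries for 25 members, and the third CD18CD11c cKO library was the highest for 28. In all 3 pairs, 17 of 35 members were higher in CD18CD11c cKO, compared with 24.0% of all genes. Without replicate 3, the members' median log2 fold change was 0.31 with 26 of 35 above 0, and 1 member was called higher (Mad2l1), where 7.91% of all genes were called higher. When single libraries were left out, 0 members and 0% of all genes were called. The median ranged from 0.49 (without the third CD18CD11c cKO library) to 1.70 (without the first CD18fl/fl library).

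**Figure D2:**
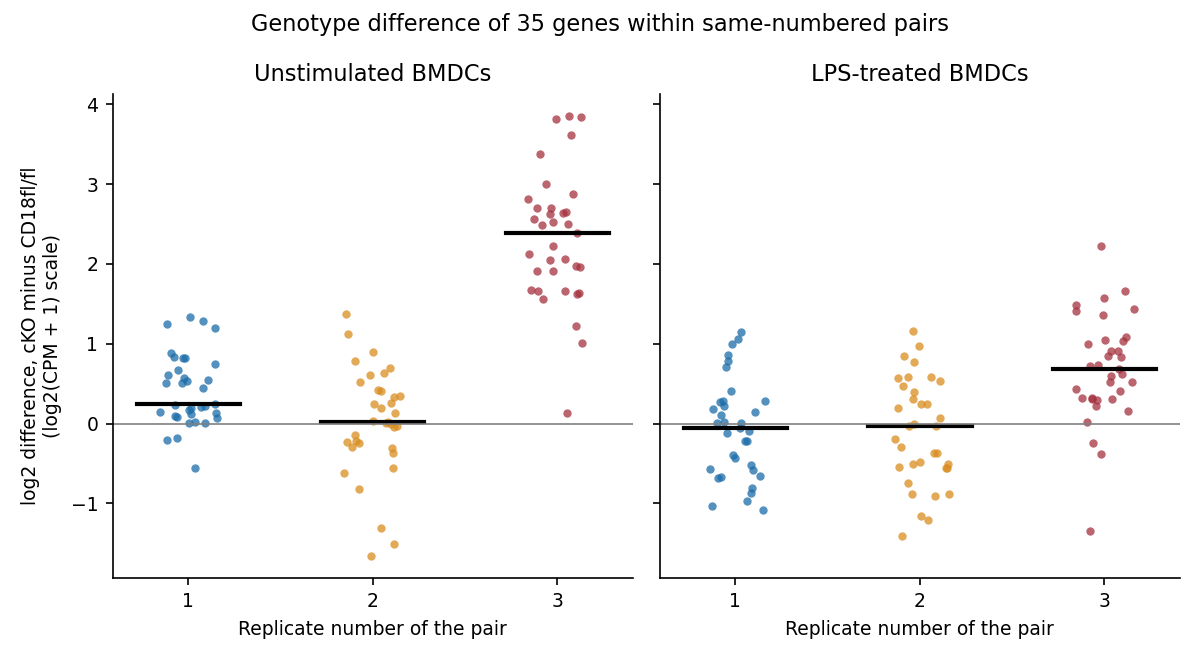
Difference of log2(CPM + 1) between CD18CD11c cKO and CD18fl/fl libraries of the same replicate number, for each of the 35 genes (points) with the median (line), in unstimulated (left) and LPS-treated (right) BMDCs. In unstimulated BMDCs the medians are 0.24, 0.02 and 2.39, and all 35 genes of pair 3 lie above 0.

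Levels of other cell types' markers also set replicate 3 apart. The summed level of 8 mast cell and basophil markers was 12.2 to 43.6 CPM in CD18fl/fl and 9.13 to 131 CPM in CD18CD11c cKO unstimulated libraries, and 4.28 to 99.1 and 7.54 to 112 CPM after LPS, with replicate 3 highest in each group. Mcpt4 and Gata1 of this list stayed at or under 3 reads in all libraries. Of 10 myeloid progenitor markers, which include Kit and Cd34, the sum was 72.5, 60.2 and 88.4 CPM in CD18fl/fl and 55.8, 41.8 and 141 CPM in CD18CD11c cKO unstimulated BMDCs, and the highest value belonged to the library that was highest for 28 members. After LPS, this sum was 16.7 to 41.8 CPM in CD18fl/fl and 24.4 to 76.7 CPM in CD18CD11c cKO. Macrophage and monocyte markers (10 genes) summed to 8548 to 33632 CPM and 16332 to 63527 CPM in the unstimulated groups, lowest in replicate 3 of both. Neutrophil markers (10 genes) summed to 158 to 1716 CPM in CD18fl/fl and 108 to 446 CPM in CD18CD11c cKO unstimulated libraries, B cell markers (6 genes) to 1.02 to 95.8 and 0.665 to 139 CPM, T and NK cell markers (7 genes) to 3.98 to 31.9 and 1.01 to 30.9 CPM, and eosinophil markers (5 genes) to 2.40 to 33.7 and 18.3 to 40.5 CPM. The part of these cells in the members' levels was not tested.

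After LPS, the same question was asked of 31 members, as Ttk, Ube2c, Cenpf and Kif2c did not pass the filter on low counts. The median log2 fold change of those tested was 0.30 (median of all 12441 genes -0.11), with 17 members above and 14 below 0 (16 and 15 with libraries scaled by their totals). Without a block, edgeR called 0 members (0.0% of all genes in either direction), with 4 at an unadjusted p under 0.05 (1212 genes in all, 9.74%) and 0 called by DESeq2 (313 genes, 2.52%). DESeq2 gave no adjusted p for most of these members, Ccnb1, Birc5 and Nuf2 among them, so they could not be called by it. With the block, Mad2l1 and Birc5 rose, 2 of 31 members, where 6.98% of all genes were called higher and 3.16% lower.

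Mad2l1 amounted to 20.5, 23.2 and 28.3 CPM in LPS-treated CD18fl/fl and to 36.1, 40.4 and 78.2 CPM in CD18CD11c cKO BMDCs. This corresponded to a log2 fold change of 1.09 ± 0.36 (adjusted p = 0.441), or 1.00 ± 0.19 (adjusted p = 0.0226) when blocked by replicate. Birc5 was at 0.963, 1.78 and 0.838 CPM and 2.55, 5.21 and 7.60 CPM, with log2 fold changes of 2.08 ± 0.57 (adjusted p = 0.387) and 2.01 ± 0.50 (adjusted p = 0.0469). For both genes, the lowest CD18CD11c cKO library exceeded the highest CD18fl/fl library. The same held for Ccnb1, at 0.835, 0.855 and 1.19 CPM against 2.84, 2.65 and 4.82 CPM, although the blocked test missed the threshold (1.78 ± 0.46, adjusted p = 0.0532), and for Nuf2, at 0.353, 1.12 and 1.14 CPM against 1.70, 2.07 and 4.98 CPM (1.72 ± 0.56, adjusted p = 0.0965). These 4 of 31 members did not overlap between genotypes in the higher direction, and 9.51% of all genes did so. All 4 belong to the 6 members without TTTGAA or TTCGAA in their windows, while 0 of the 21 tested members with either hexamer were free of overlap in that direction. Between unstimulated genotypes, 1 of 6 members without and 1 of 25 with a hexamer were free of overlap, and 4 of 6 and 2 of 25 were called higher with the block. In the response to LPS in CD18CD11c cKO, no such split was seen, as 4 of 6 and 18 of 25 were called lower with the block. The split was chosen after the values were seen and is given without a test.

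The other members were not called between the genotypes after LPS, although some had sizeable fitted differences. Ccnb2 (1.90), Ccna2 (1.53), Kif23 (1.37), Kif11 (1.18) and Cdc20 (1.10) were above 0 and Mki67 (-1.24) was below 0 on the log2 scale, with adjusted p of 0.638 or more by edgeR. Cdk1 was at 7.70, 8.29 and 13.9 CPM and 9.60, 9.65 and 20.5 CPM (log2 fold change 0.39 ± 0.43, adjusted p = 0.825), and Top2a at 15.2, 14.4 and 5.74 CPM and 13.0, 9.79 and 11 CPM (-0.09 ± 0.40, adjusted p = 0.961). Plk1, the Polo-like kinase, was the single member lower in all 3 CD18CD11c cKO libraries than in their same-numbered controls, at 0.482, 0.669 and 1.14 CPM and 0, 0 and 0.647 CPM. It was at 0 reads in the first and second CD18CD11c cKO libraries and did not pass the test (-1.77 ± 1.55, adjusted p = 0.769). In all 3 pairs, 9 of 31 members were higher in CD18CD11c cKO, compared with 23.1% of all genes, and 1 of 31 (Plk1) was lower, compared with 26.2%. The members' pair medians were -0.06, -0.03 and 0.68, and 24 of 35 members were highest in the third CD18CD11c cKO library among the 6 LPS libraries. Without replicate 3, the members' median log2 fold change was -0.12 and 0 members were called, where 3.24% of all genes were called higher. Without the third CD18CD11c cKO library alone, the median was -0.18.

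LPS was then compared with no stimulation within each genotype. In CD18fl/fl BMDCs, 5 of 35 members fell, namely Ccna2, Ccnb1, Ube2c, Kif11 and Kif23, and 0 rose, where 1.83% of all 12744 genes were called lower and 2.06% higher. The members' median log2 fold change was -1.28, against -0.02 over all genes. With the block, 8 members fell, adding Ccnb2, Birc5 and Kif2c, with 6.43% of all genes called lower and 6.33% higher. In CD18CD11c cKO BMDCs, 7 members fell (Ccnb1, Ccnb2, Cdc20, Nuf2, Birc5, Kif20a and Racgap1) and 0 rose, where 1.76% of all 12687 genes were called lower and 2.23% higher, and the members' median was -2.46 (all genes -0.01). With the block, 25 members fell, with 9.93% of all genes called lower and 10.2% higher. The 10 members that were not among them were Ttk, Bub1, Bub3, Mad2l1, Cenpa, Cenpe, Ndc80, Kif23, Kif4 and Tpx2. Markers of other cell types moved with LPS too. In LPS-treated CD18fl/fl and CD18CD11c cKO libraries, neutrophil markers summed to 82.3 to 108 and 62.7 to 113 CPM, macrophage and monocyte markers to 6304 to 13926 and 10589 to 15746 CPM, B cell markers to 2.64 to 21.0 and 1.55 to 42.2 CPM, T and NK cell markers to 3.63 to 4.02 and 4.80 to 6.99 CPM, and eosinophil markers to 0.152 to 0.674 and 0.988 to 5.79 CPM. The mean of each of these sums was lower than in the unstimulated libraries of the same genotype. Mean mast cell and basophil markers went from 22.8 to 36.7 CPM in CD18fl/fl, a rise seen in replicate 3 only, and from 50.7 to 43.2 CPM in CD18CD11c cKO. Mean dendritic cell markers went from 22245.5 to 32360.5 CPM in CD18fl/fl and from 28152 to 26944 CPM in CD18CD11c cKO. The part of these cells in the members' fall was not tested. Of the 8 members called lower in CD18fl/fl with the block, 7 were also called in CD18CD11c cKO, which is 87.5% of the former and 28% of the latter list.

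Counts without overlap gave a similar view of both genotypes. In CD18fl/fl, all LPS libraries lay below all unstimulated libraries for 17 of 35 members, compared with 15.9% of all genes, and 23 members were lower in all 3 pairs, compared with 29.2%. In CD18CD11c cKO, 18 members were free of overlap in the lower direction, compared with 13.4% of all genes, and 32 were lower in all 3 pairs, compared with 27.4%. The exceptions in CD18CD11c cKO were Cenpa, Kif23 and Kif4, each lower with LPS in some but not all pairs.

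Ccnb1 dropped from 20.3, 6.84 and 3.42 CPM to 0.835, 0.855 and 1.19 CPM in CD18fl/fl (log2 fold change -3.39 ± 0.71, adjusted p = 0.0493) and from 48.0, 19.3 and 61.1 CPM to 2.84, 2.65 and 4.82 CPM in CD18CD11c cKO (-3.66 ± 0.52, adjusted p = 0.021). It was called lower in both genotypes, and within each genotype no LPS library reached the level of an unstimulated one. Ccna2 fell to 0.578, 0.297 and 0.254 CPM in CD18fl/fl (-4.58 ± 0.80, adjusted p = 0.0338) and was at 1.58, 0.135 and 1.59 CPM in LPS-treated CD18CD11c cKO (-3.89 ± 0.87, adjusted p = 0.0551). Ccnb2 reached 0.674, 0.0744 and 0.432 CPM and 0.689, 0.494 and 3.27 CPM after LPS, and it was called in CD18CD11c cKO (-4.38 ± 0.89, adjusted p = 0.045) but missed the threshold in CD18fl/fl (-4.65 ± 1.08, adjusted p = 0.0644) unless the block was used. Cdk1, the partner of these cyclins, changed by less, with -0.73 ± 0.34 (adjusted p = 0.242) in CD18fl/fl and -1.79 ± 0.57 (adjusted p = 0.131) in CD18CD11c cKO. With the block, Cdk1 fell in CD18CD11c cKO (-1.69 ± 0.23, adjusted p = 0.00471). Without replicate 3, edgeR called it lower in CD18fl/fl as well (-1.09 ± 0.26, adjusted p = 0.00524).

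Ube2c, Cdc20 and Cdca3, which were grouped with the APC/C, were low after LPS. Ube2c (ubiquitin-conjugating enzyme of the APC/C) had 0.161, 0.0372 and 0.127 CPM in CD18fl/fl and 0, 0.0898 and 2.56 CPM in CD18CD11c cKO, after 12.4, 5.21 and 1.74 CPM and 12.4, 4.07 and 27.5 CPM without stimulation. Its fall was called in CD18fl/fl (-5.82 ± 0.96, adjusted p = 0.0292) and, with the block, in CD18CD11c cKO (-4.97 ± 0.87, adjusted p = 0.0101). The LPS-treated libraries held 5, 1 and 5 reads of Ube2c in CD18fl/fl and 0, 2 and 79 in CD18CD11c cKO. The size of its fall thus rests on counts at or near the floor in most of these libraries. Cdc20, the activator and checkpoint target, was at 0.578, 0.297 and 1.4 CPM and 1.09, 0.943 and 2.94 CPM after LPS and was called in CD18CD11c cKO (-3.41 ± 0.71, adjusted p = 0.046). Cdca3, an F-box protein that triggers mitotic entry, had log2 fold changes of -3.51 and -3.49, the latter called with the block (adjusted p = 0.00648).

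The mitotic kinases had fitted log2 fold changes in CD18fl/fl of -1.39 for Aurka, -1.28 for Aurkb, -1.44 for Plk1 and -0.44 for Ttk, none of which was called with or without the block. Without replicate 3, edgeR called Aurka (-1.80 ± 0.37, adjusted p = 0.00184), Aurkb (-1.54 ± 0.39, adjusted p = 0.0064) and Plk1 (-2.09 ± 0.63, adjusted p = 0.017) lower in CD18fl/fl. That fit called 24.3% of all genes lower and did not test Ttk. Aurka was at 2.02, 1.97 and 2.57 CPM in LPS-treated CD18fl/fl and 2.63, 1.12 and 3.40 CPM in LPS-treated CD18CD11c cKO, and Aurkb at 2.54, 2.08 and 2.03 CPM and 1.22, 1.39 and 3.85 CPM. In CD18CD11c cKO, the blocked test called Aurka (-2.31 ± 0.33, adjusted p = 0.00545), Aurkb (-2.59 ± 0.39, adjusted p = 0.00621) and Plk1 (-5.59 ± 0.91, adjusted p = 0.0081). The LPS-treated CD18CD11c cKO libraries held 0, 0 and 20 reads of Plk1, so the size of its fall is uncertain. Among kinesins, Kif11, the motor that pushes spindle poles apart, was at 0.738, 0.260 and 0.381 CPM in LPS-treated CD18fl/fl (-3.69 ± 0.72, adjusted p = 0.0436), and Kif23, of the central spindle, at 0.546, 0.186 and 0.102 CPM (-4.02 ± 0.76, adjusted p = 0.0398). Kif20a was called in CD18CD11c cKO (-3.94 ± 0.70, adjusted p = 0.0342), where it went from 11.1, 6.03 and 20.3 CPM to 0.486, 0.494 and 1.46 CPM. Kif2c, which depolymerizes microtubules, was at 0.0642, 0.112 and 0.152 CPM in LPS-treated CD18fl/fl and missed the threshold narrowly without the block (-4.35 ± 0.92, adjusted p = 0.0505). These levels were 2, 3 and 6 reads, at or near the floor. Kif4 was not called in either genotype.

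**Figure D3:**
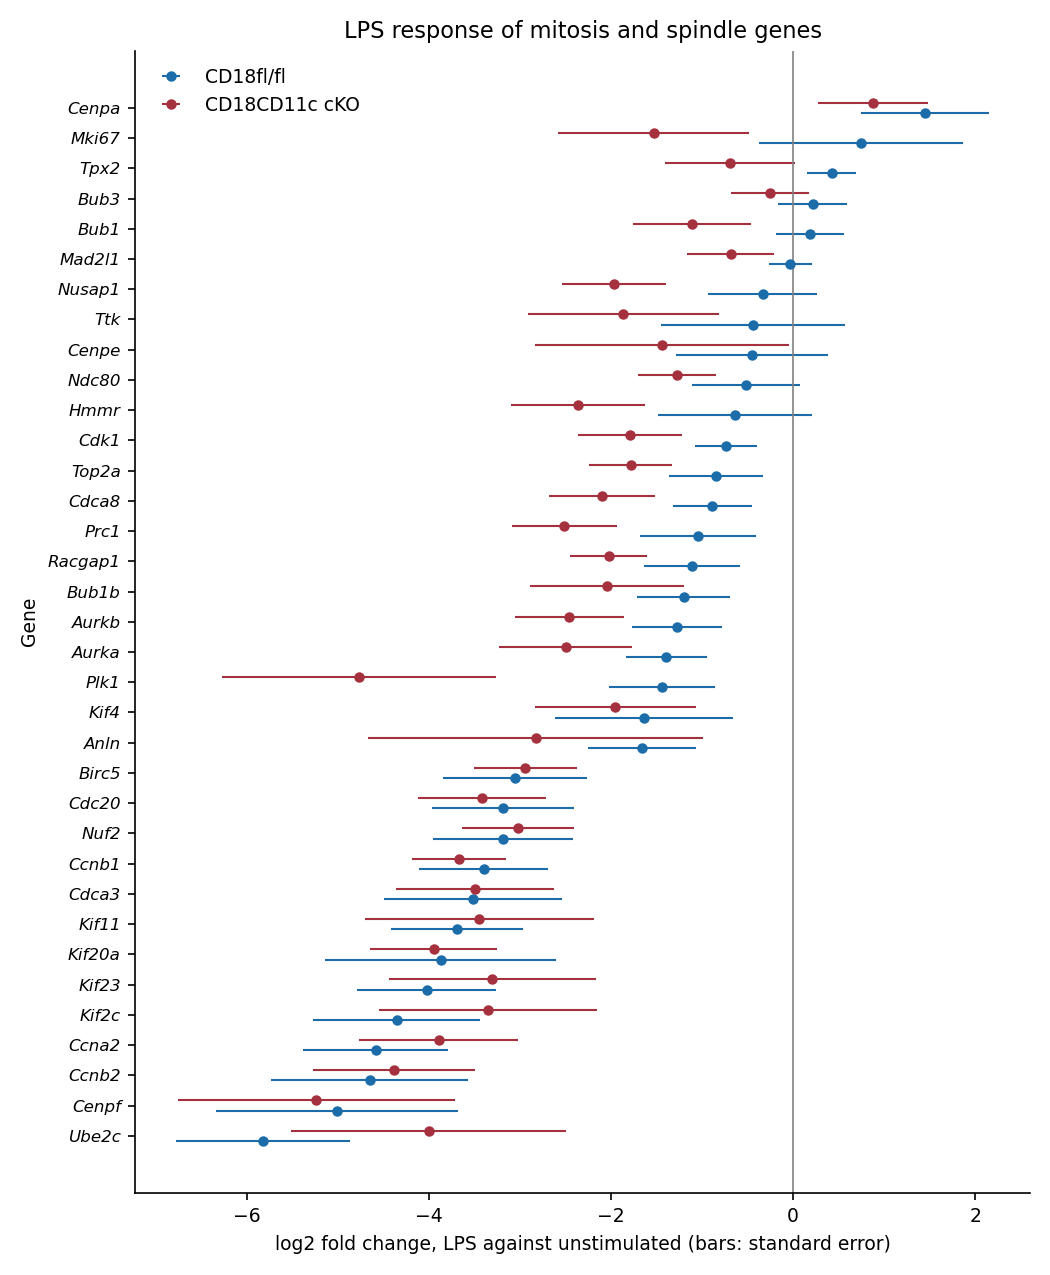
Log2 fold change of each gene with LPS (horizontal axis; points, with bars of the standard error from edgeR) in CD18fl/fl and CD18CD11c cKO BMDCs, ordered by the value in CD18fl/fl. Values span 1.45 (Cenpa) to -5.82 (Ube2c) in CD18fl/fl, and 34 of 35 genes lie below 0 in CD18CD11c cKO. Ube2c had 5, 1 and 5 reads in the LPS-treated CD18fl/fl libraries.

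At the kinetochore, Nuf2 fell to 1.70, 2.07 and 4.98 CPM in CD18CD11c cKO (-3.02 ± 0.62, adjusted p = 0.045), and its values in LPS-treated CD18fl/fl were 0.353, 1.12 and 1.14 CPM (-3.18 ± 0.76, adjusted p = 0.0689). Ndc80, its partner in the same complex, was less affected, with -0.51 ± 0.59 (adjusted p = 0.634) and -1.28 ± 0.43 (adjusted p = 0.145). Cenpf was at 2 reads over the 3 LPS-treated CD18fl/fl libraries and at 5 reads over those of CD18CD11c cKO, so no fold change is given. Cenpe stayed at 0.385, 0.223 and 1.27 CPM and 0.527, 0 and 1.81 CPM and was not called. Of the passenger complex, Birc5 fell in CD18CD11c cKO (-2.94 ± 0.56, adjusted p = 0.0415) and, with the block, in CD18fl/fl (-2.62 ± 0.62, adjusted p = 0.0449). Racgap1, a regulator of the cleavage furrow, fell in CD18CD11c cKO from 30.2, 12.6 and 25.8 CPM to 7.94, 3.86 and 5.60 CPM (-2.02 ± 0.42, adjusted p = 0.0471). This call was lost in each fit with libraries left out, and edgeR gave -1.95 ± 0.53 (adjusted p = 0.0531) without replicate 3. Anln (anillin) was at 0, 0 and 3.46 CPM in LPS-treated CD18CD11c cKO and was called there with the block (adjusted p = 0.0274).

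Nusap1 was at 7.83, 13.2 and 4.75 CPM in LPS-treated CD18fl/fl and 4.05, 4.36 and 9.80 CPM in LPS-treated CD18CD11c cKO BMDCs. The spindle microtubule proteins Nusap1, Hmmr and Prc1 had log2 fold changes of -0.33, -0.64 and -1.05 in CD18fl/fl, and of -1.97, -2.36 and -2.51 in CD18CD11c cKO. All 3 were called lower with the block in CD18CD11c cKO (adjusted p = 0.0108, 0.0439 and 0.00299) and none in CD18fl/fl, with or without the block. Without replicate 3, edgeR called Prc1 lower in CD18fl/fl too (-1.16 ± 0.38, adjusted p = 0.0238), but not Nusap1 or Hmmr. Top2a was likewise called with the block in CD18CD11c cKO (-1.62 ± 0.31, adjusted p = 0.0142), with -0.82 ± 0.29 (adjusted p = 0.113) in CD18fl/fl. These contrasts between genotypes were tested by the interaction, which is given further on.

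Some members did not follow the majority. Cenpa was at 186, 235 and 27.6 CPM in LPS-treated CD18fl/fl and at 411, 183 and 57.6 CPM in LPS-treated CD18CD11c cKO, thus above the unstimulated level in replicates 1 and 2 and below it in replicate 3 of both genotypes. Its log2 fold change was 1.45 ± 0.70 (adjusted p = 0.262) in CD18fl/fl, and 1.73 ± 0.20 (adjusted p = 2.82e-05) without replicate 3, when it was called higher. Bub3 stayed at 119, 119 and 50.4 CPM and 135, 80.5 and 42.2 CPM (0.22 ± 0.38, adjusted p = 0.766 and -0.25 ± 0.43, adjusted p = 0.793). Mad2l1 was nearly level in CD18fl/fl (-0.03 ± 0.23, adjusted p = 0.955), at 20.5, 23.2 and 28.3 CPM after 28.2, 23.7 and 21.8 CPM. Bub1 had 0.19 ± 0.37 (adjusted p = 0.794) in CD18fl/fl and -1.11 ± 0.65 (adjusted p = 0.381) in CD18CD11c cKO, and Bub1b was called lower in CD18CD11c cKO with the block (-2.47 ± 0.52, adjusted p = 0.0183).

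The response of Mki67 in CD18fl/fl rested on 1 library. It was at 1.44, 1.34 and 26.8 CPM with LPS, so that the third library was well above the other two and above all unstimulated CD18fl/fl libraries (8.04, 3.84 and 5.96 CPM). The log2 fold change was 0.74 ± 1.12 (adjusted p = 0.725) with all libraries, -0.69 ± 0.98 (adjusted p = 0.656) with the block, and -2.09 ± 0.46 (adjusted p = 0.00273) without replicate 3. In CD18CD11c cKO, Mki67 went from 5.12, 5.13 and 26.3 CPM to 0.810, 1.89 and 9.93 CPM, and it was called lower with the block (-1.83 ± 0.34, adjusted p = 0.0128).

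Leaving out libraries changed the number of members called with LPS. In CD18fl/fl, 23 of 34 members tested fell and 1 (Cenpa) rose without replicate 3, where 24.3% of all genes were called lower and 23.2% higher. Of the 23, Ccna2, Ccnb1, Ccnb2, Ube2c, Birc5, Kif11, Kif23 and Kif2c were also called with all libraries and the block. The others, Aurka, Aurkb, Plk1, Prc1 and Cdk1 among them, were not called by edgeR with all libraries, with or without the block. Without the third LPS library alone, 13 members fell and Cenpa rose (12.5% of all genes lower and 12.2% higher), and without the third unstimulated library alone, 7 fell (1.91% of all genes). Leaving out replicate 1 or replicate 2, or any 1 library of these numbers, left 0 members and 0% of all genes called in either direction. The median log2 fold change of the members ranged from -0.84 to -1.86 over all fits with libraries left out. In CD18CD11c cKO, 17 of 35 members fell without replicate 3, where 7.99% of all genes were called lower. Without the third LPS library alone, 13 fell (3.68% of all genes), and without the third unstimulated library 1 fell (1.21%). Without replicate 1 or 2, or any 1 library of these numbers, 0 were called. At most 0.0376% of all genes were then called lower and 0.158% higher. Over all these fits, the medians were -1.74 to -3.25.

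**Figure D4:**
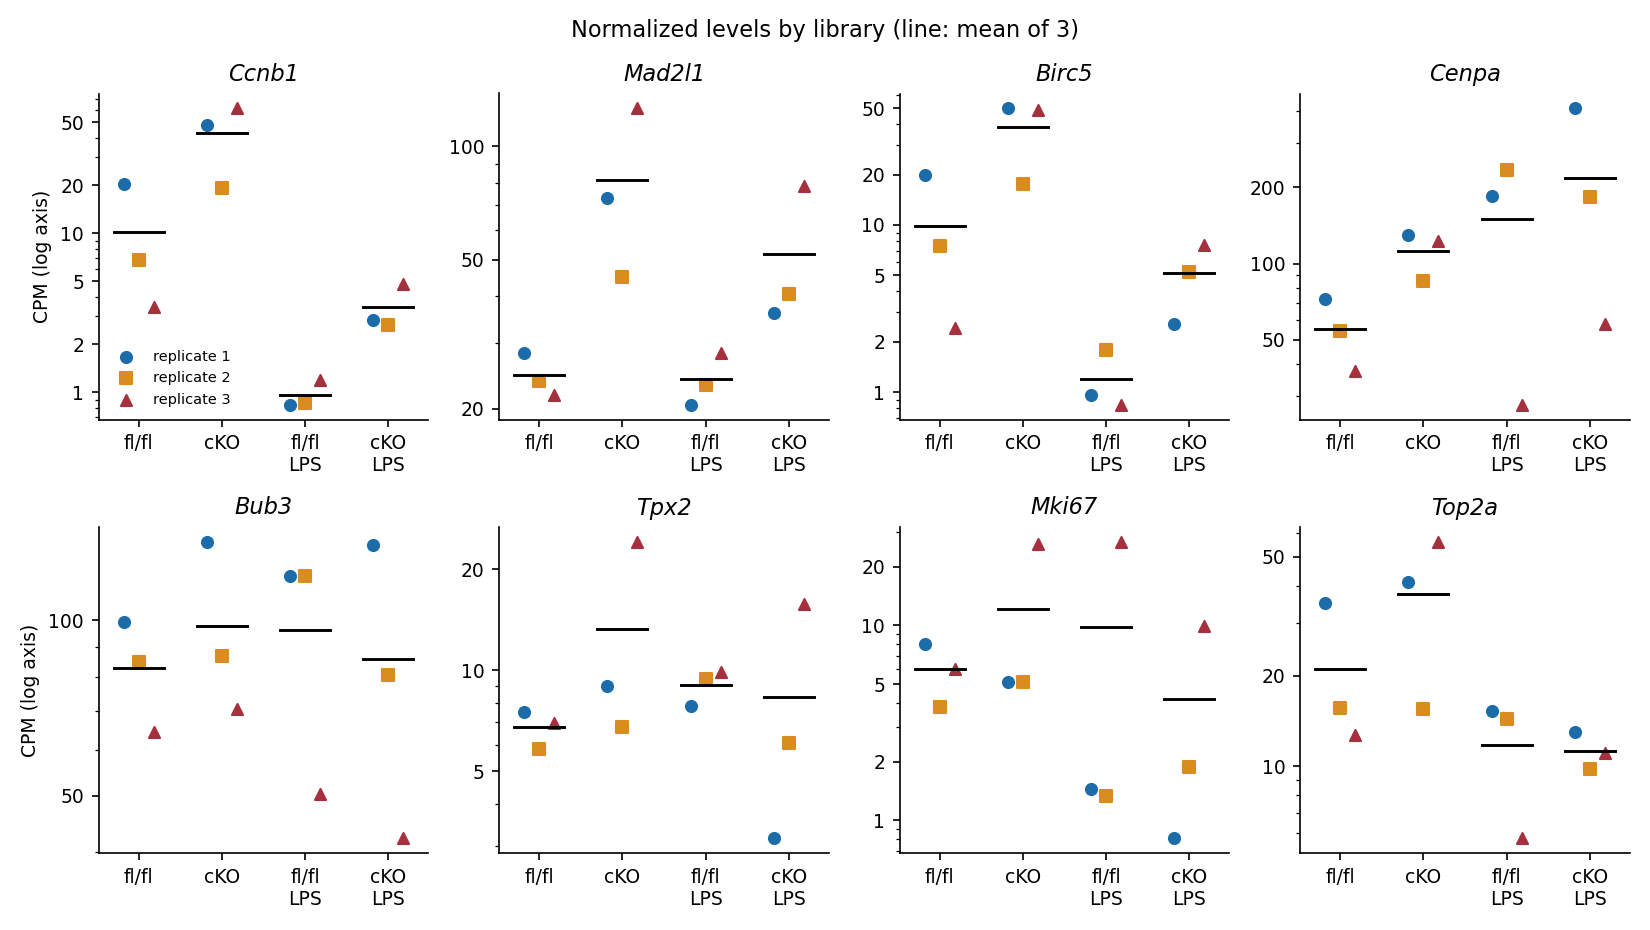
Level of 8 genes in each library (points, shaped and coloured by replicate number) with the mean of 3 libraries (line), in CPM on a log axis. Ccnb1 and Birc5 are lower with LPS in both genotypes, Mad2l1 is higher in all CD18CD11c cKO libraries than in the CD18fl/fl libraries of the same state, and Mki67 of LPS-treated CD18fl/fl BMDCs has 1 library at 26.8 CPM.

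Whether LPS acted differently in the genotypes was tested by the interaction over all 12 libraries. edgeR called 0 of 35 members and 0.0% of all 13752 genes in either direction, 0 members had an unadjusted p under 0.05 (97 genes in all, 0.705%), and DESeq2 called 0 members and 0 genes. The members' median interaction was -0.71 on the log2 scale (median of all genes 0.02), with 26 members below 0, which denotes a larger fall in CD18CD11c cKO. It ranged from -0.15 without the third unstimulated CD18CD11c cKO library to -1.42 without the third LPS-treated CD18CD11c cKO library. Plk1 had the smallest p, with an interaction of -3.34 ± 1.62 (unadjusted p = 0.0629, adjusted p = 1), followed by Nusap1 with -1.61 ± 0.87 (unadjusted p = 0.0905, adjusted p = 1). A difference in the response to LPS between the genotypes was thus not shown for any member.

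Tpx2, which nucleates spindle microtubules and activates Aurora A, moved in opposite directions in the libraries of the genotypes. In CD18fl/fl, it was at 7.52, 5.84 and 6.97 CPM without and 7.83, 9.41 and 9.91 CPM with LPS, and the groups did not overlap. This held in the higher direction for 1 of 35 members, compared with 13.6% of all genes. In CD18CD11c cKO, it was at 8.97, 6.80 and 24.1 CPM without and 3.16, 6.06 and 15.8 CPM with LPS, lower in each pair. Neither change was called (0.42 ± 0.27, adjusted p = 0.384 and -0.69 ± 0.71, adjusted p = 0.637).

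Other genes of the cell cycle were taken from lists of 98 further mitosis genes, 33 genes of G1 and S phase, 8 CDK inhibitors and 27 regulators of mitotic transcription. With the block, 20 of 97 further mitosis genes tested were higher and 1 lower in unstimulated CD18CD11c cKO compared with CD18fl/fl BMDCs (12.1% and 8.16% of all genes), with a median log2 fold change of 0.85 in the unblocked fit. Tubb4b, a tubulin, was among those higher (1.13 ± 0.16, adjusted p = 0.00469 with the block), as was Cks1b, a CDK-binding subunit (1.5 ± 0.25, adjusted p = 0.00872). Of the G1 and S phase list, 11 of 33 genes were higher and 1 lower with the block. The replication clamp Pcna (1.45 ± 0.23, adjusted p = 0.00661), the thymidylate synthase Tyms (1.53 ± 0.27, adjusted p = 0.0105) and the clamp loader subunit Rfc3 (1.12 ± 0.18, adjusted p = 0.00674) were higher. After LPS, 4 of 87 further mitosis genes and 5 of 33 G1 and S phase genes were higher in CD18CD11c cKO with the block (6.98% of all genes) and 0 were lower. Prim1, a primase subunit of the G1 and S phase list, was among those higher (1.80 ± 0.22, adjusted p = 0.00709). Without the block, none of these lists held a call between the genotypes.

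With LPS, 26 of 94 further mitosis genes fell and 2 rose in CD18CD11c cKO with the block (3 and 1 without), and 5 of 97 fell and 2 rose in CD18fl/fl (2 and 1 without). Over all genes, 9.93% fell and 10.2% rose in CD18CD11c cKO with the block, and 6.43% and 6.33% in CD18fl/fl. Iqgap3 (-2.46 ± 0.43, adjusted p = 0.0348) and the microtubule destabilizer Stmn1 (-2.72 ± 0.52, adjusted p = 0.0403) fell in CD18fl/fl. Ckap2 (-3.45 ± 0.68, adjusted p = 0.0419) and Ect2, the exchange factor that starts furrowing (-2.67 ± 0.57, adjusted p = 0.0485), fell in CD18CD11c cKO. Pttg1 (securin), a substrate of the APC/C, rose instead in both genotypes, at 1.44 ± 0.28 (adjusted p = 0.0424) in CD18fl/fl and 1.25 ± 0.26 (adjusted p = 0.0478) in CD18CD11c cKO, with 17.4, 18.9 and 14.7 CPM without and 47.8, 57.9 and 32.2 CPM with LPS in the former.

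Of the G1 and S phase list, 12 of 33 genes fell and 2 rose with LPS in CD18CD11c cKO with the block, and 3 fell and 2 rose in CD18fl/fl, to be read against the same shares of all genes. Cdk4 fell in both genotypes (-1.07 ± 0.21, adjusted p = 0.0442 and -1.30 ± 0.24, adjusted p = 0.0373), and the ribonucleotide reductase subunit Rrm2 in CD18fl/fl (-3.25 ± 0.64, adjusted p = 0.0442). The replication helicase subunits Mcm5 (-1.93 ± 0.36, adjusted p = 0.0394) and Mcm7 (-1.35 ± 0.24, adjusted p = 0.0342) fell in CD18CD11c cKO, whereas Tyms rose in CD18fl/fl (1.63 ± 0.30, adjusted p = 0.0388). Among regulators, E2f2, a transcription factor of the E2F family, fell in both genotypes (-2.31 ± 0.33, adjusted p = 0.0195 and -2.57 ± 0.53, adjusted p = 0.0454). Mxd3, a partner of Max, fell in CD18CD11c cKO (-4.50 ± 0.56, adjusted p = 0.0167), and in CD18fl/fl its unblocked test missed the threshold (-4.16 ± 0.90, adjusted p = 0.0529). Foxm1, the activator of late cell cycle genes, was scarce, at 1.22, 0.526 and 0.668 CPM and 1.17, 0 and 3.06 CPM in unstimulated CD18fl/fl and CD18CD11c cKO BMDCs and at 0.0963, 0 and 0 CPM and 1.09, 0.404 and 0.680 CPM after LPS. Neither Foxm1 nor Mybl2, the B-Myb partner of the same complex, was called in any comparison. Of the 27 regulators, 3 of 25 tested fell and 2 rose with LPS in CD18fl/fl with the block, and 6 of 26 fell and 3 rose in CD18CD11c cKO, where the shares of all genes were again 6.43% and 6.33%, and 9.93% and 10.2%.

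Of the CDK inhibitors, 0 of 8 were called without the block. With it, Cdkn1b (p27) rose with LPS in both genotypes (2.02 ± 0.34, adjusted p = 0.0182 and 1.85 ± 0.17, adjusted p = 0.00179). It was at 119, 94.1 and 58.2 CPM without and 496, 633 and 136 CPM with LPS in CD18fl/fl, and at 139, 146 and 59.8 CPM and 499.5, 584 and 216 CPM in CD18CD11c cKO. In both genotypes, replicate 3 had the lowest level of the group with LPS. Between genotypes, Cdkn2d (p19) was higher in unstimulated CD18CD11c cKO with the block (1.05 ± 0.23, adjusted p = 0.0218). With LPS against no stimulation, Cdkn1a (p21) and Cdkn2b (p15) rose within CD18CD11c cKO with the block (0.78 ± 0.17, adjusted p = 0.0203 and 1.23 ± 0.31, adjusted p = 0.0351). The summed level of the 8 inhibitors was 399.9 to 760.5 CPM and 394 to 493 CPM in unstimulated CD18fl/fl and CD18CD11c cKO BMDCs, and 1098 to 1359 CPM and 939 to 1075 CPM after LPS. Cdkn1a and Cdkn1b held most of this sum, and not every inhibitor rose. In CD18fl/fl, Cdkn3 was at 4.24, 2.63 and 2.81 CPM without and 2.15, 2.08 and 0.788 CPM with LPS.

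**Figure D5:**
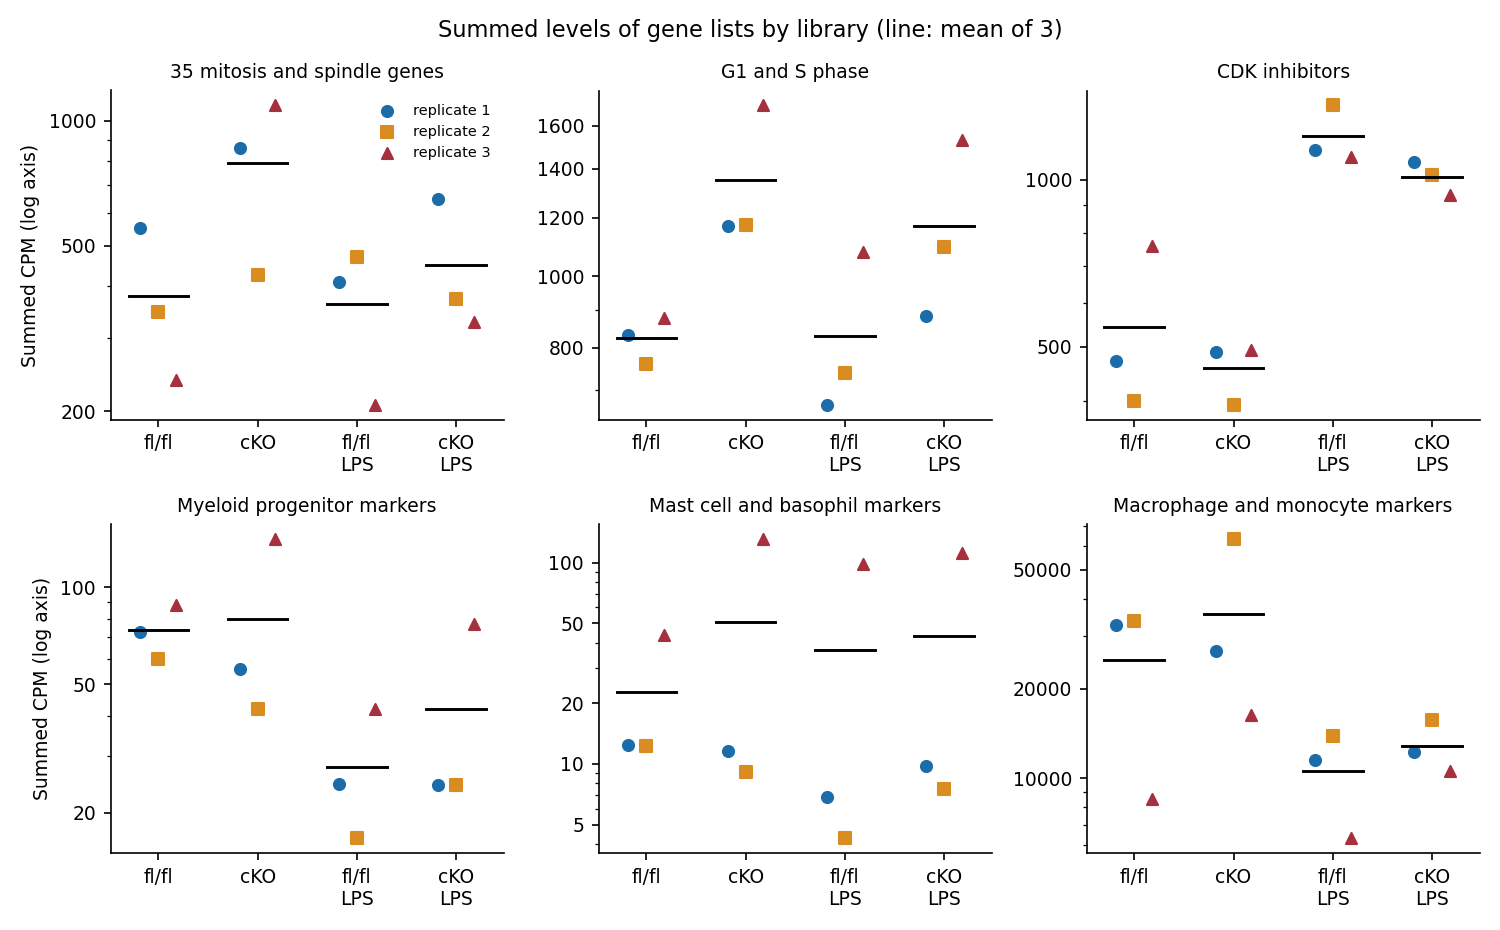
Summed CPM of 6 gene lists in each library (points, by replicate number) with the mean of 3 libraries (line), on log axes. The sum of the 35 mitosis and spindle genes is highest in the third unstimulated CD18CD11c cKO library. The sum of the CDK inhibitors is higher in all LPS libraries than in all unstimulated ones. Mast cell and basophil markers are highest in replicate 3 of each group. Sums follow their most abundant genes. Cenpa and Bub3 held 186 and 119 of the 409 CPM in the first LPS-treated CD18fl/fl library, and Cdkn1a and Cdkn1b held most of the inhibitor sum.

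Some members overlap other genes in the genome. Exons of 17 members overlapped a gene on the opposite strand in GENCODE (GRCm39), and the library kit does not mark strand, so reads counted there cannot be told apart from those of the partner. Among them were Ccna2 (with Exosc9), Cdk1 (Ank3), Aurka (Cstf1 and Fam210b), Cdc20 (Elovl1), Ube2c (Tnnc2), Cdca3 (Usp5), Cdca8 (Airim), Kif20a (Brd8 and Cdc23), Kif4 (Pdzd11), Nusap1 (Oip5) and Prc1 (Rccd1). The GENCODE genes differ in extent from the regions in the deposited files, by 47827 bases at the end of Cdk1. Some overlaps may therefore lie outside the exons on which reads were counted. The share of reads placed at a single site, summed over libraries, was lowest for Prc1 (88.0%), Kif20a (89.4%) and Ccna2 (92.1%).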

How the data were processed

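MHCII+ BMDCs of 12 libraries in 4 groups (3 per group, grouped by their labels) were sequenced as single reads from poly(A)-selected RNA. The authors mapped reads with CLC Genomics Workbench at default settings and deposited, per library, raw counts of total gene reads and of unique gene reads, together with TPM computed by that program per transcript length. The methods name GRCm39 and the labels GRCm38, and the coordinates in the deposited files matched GRCm39. Total gene reads were tested here with edgeR 4.0.16 (R 4.3.3), by quasi-likelihood tests with TMM scaling, filterByExpr at a minimum count of 10 and Benjamini-Hochberg adjustment over all genes tested, and genes with an adjusted p under 0.05 are termed called. Each comparison used its 6 libraries, and the interaction all 12. DESeq2 1.42.0, other scalings and filters, unique reads, a length offset and the omission of libraries served as alternatives. Replicate numbers come from the sample labels, which do not say what they stand for. Deviations from the group means, over 13752 genes, correlated between same-numbered libraries at 0.28 to 0.802 in every pair of every comparison, so the number was taken as pairing libraries and used as a block where stated. With LPS in CD18fl/fl, libraries numbered 1 and 2 correlated with each other at 0.307 and 0.408, above the 0.28 of the pair numbered 2. The numbers thus set replicate 3 apart more clearly than they pair replicates 1 and 2. Pair differences used log2(CPM + 1). Groups were counted as free of overlap when all 3 libraries of one lay above all 3 of the other, for which an exact permutation test could not give a p below 0.1. Unique reads made up 95.1% to 96.2% of total gene reads.

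The 35 members and the gene lists were chosen with earlier results of these data known. All members are named. Values in every library are given for the member with the highest mean CPM of each role, for a set of well-known members, and for those with the smallest p of a comparison. Genes of the pathway lists are named when among the 3 smallest p per direction of a comparison, and CDK inhibitors and regulators may always be named. The edgeR step was tested on simulated data.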

Additional observations from a re-analysis of the deposited data

Results flagged for a closer look

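Tpx2 drew attention because every same-numbered pair moved up with LPS in CD18fl/fl BMDCs and down in CD18CD11c cKO BMDCs. It was the 1 member of 35 higher in all 3 CD18fl/fl pairs, compared with 25.5% of all genes, and its first pair differed by 0.05 in log2(CPM + 1). Its log2 fold change with LPS was 0.42 ± 0.27 (standard error) in CD18fl/fl and -0.69 ± 0.71 in CD18CD11c cKO. The difference itself was tested by the interaction in edgeR, which gave -1.09 ± 0.80 with an adjusted p of 1. Without single libraries or replicates, the change in CD18CD11c cKO ranged from -1.62 to 0.08.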

How the results depend on the processing

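The block and DESeq2 raised the number of calls. Between unstimulated genotypes, the genes called over all genes went from 0 to 866 with DESeq2, 19 in a fit over all 12 libraries, 2606 with the replicate block, 1569 with block and length offset, and 3308 with DESeq2 and block, the last chosen after seeing the data. The members called higher were then 5, 0, 6, 4 and 11. After LPS, the genes called between genotypes were 313 with DESeq2, 1 without the filter, 45 over all 12 libraries, 1262 with the replicate block, 1034 with block and length offset and 1993 with DESeq2 and block, with 2, 2 and 4 members called higher in the last 3. With LPS in CD18fl/fl, 496 genes became 1976 (DESeq2), 1068 (all 12 libraries), 1627 (replicate block), 1742 (block and length offset) and 3269 (DESeq2 and block), and the 5 members called lower became 13, 9, 8, 6 and 16, or 10 without the filter. In CD18CD11c cKO, 506 genes became 1681, 983, 2560, 2545 and 3539, or 805 without the filter, and the 7 members called lower became 22, 12, 25, 25 and 30, or 13 without the filter. For the interaction, 2 genes were called with DESeq2 and block in place of 0. The replicate block changed no other call of the members than those given in the report. The cause of these shifts was not tested.

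Signs were followed for the members chosen by the naming rule. Between unstimulated genotypes those that turned were Bub3 (-0.11, totals) and Kif23 (-0.010 with the replicate block and -0.11 with DESeq2 and block). After LPS they were Aurka (-0.12 with totals, -0.010 with the replicate block, -0.13 with block and length offset) and Top2a (0.018, 0.17 and 0.055 with block, block and length offset, and DESeq2 and block). With LPS in CD18fl/fl they were Mad2l1 (3.4e-04 with RLE, 6.4e-04 with DESeq2, 0.077 with block and length offset), Bub1 (-0.12) and Bub3 (-0.15) with totals, and Mki67 (-0.69, -0.50 and -0.72 in the blocked fits).

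Leaving out libraries gave 0 to 1383 genes and 0 to 1 members called higher between unstimulated genotypes, and 0 to 523 genes with a members' median of -0.18 to 0.51 after LPS. With LPS, it gave 0 to 6140 genes, 0 to 1 members higher, 0 to 23 lower and a median of -1.86 to -0.84 in CD18fl/fl, and 0 to 2049 genes, 0 to 17 members lower and a median of -3.25 to -1.74 in CD18CD11c cKO. Of the same members, those that turned sign were, between unstimulated genotypes, Bub3 (-0.019 to 0.49), Ube2c (-0.035 to 2.24), Kif23 (-0.20 to 1.24), Kif2c (-0.040 to 2.00) and Mki67 (-0.15 to 1.75). After LPS they were Cdk1 (-0.11 to 0.70), Aurka (-0.27 to 0.44), Aurkb (-0.86 to 0.33), Bub3 (-0.68 to 0.12), Cenpa (-0.35 to 1.14), Tpx2 (-1.02 to 0.26), Nusap1 (-1.36 to 0.14), Racgap1 (-0.49 to 0.24), Top2a (-0.44 to 0.20) and Mki67 (-2.94 to 1.59). With LPS in CD18fl/fl they were Bub1 (-0.088 to 0.66), Mad2l1 (-0.25 to 0.18), Nusap1 (-0.86 to 0.38) and Mki67 (-2.09 to 1.53), and in CD18CD11c cKO Bub3 (-0.71 to 0.053) and Tpx2 (-1.62 to 0.079). Of the other members, Bub1b, Cdca3, Kif4, Hmmr and Anln were below 0 between unstimulated genotypes without replicate 3 (-0.57 to -0.012), as were Kif11 (-0.84) and Cenpe (-0.23) after LPS, and Cenpe was at -0.31 with the block. Of the values of single members and list sums recomputed under these alternatives, 1387 kept their direction and their side of the threshold or stayed within 1 SD, 129 passed the threshold in addition, 62 lost it, 63 changed sign and 7 moved by over 1 SD. Depth limits the members at or under 3 reads, which numbered up to 8 in an LPS library, and 3 libraries per group limit every test.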
